A study of Mus musculus with 258 samples.

Results

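The chromatin loops described here lie in the mouse major histocompatibility complex (MHC) on chromosome 17 and around Ciita on chromosome 16. They were taken from Hi-C maps of resting and activated B cells. They were chosen by position alone, with no measured value. A loop was included when the start of either anchor lay in chr17:33800001-36600000 or in chr16:10100001-10900000 (build mm9). This rule gave 35 loops of 6181 in both lists together. The resting list held 13 of them, with 10 in the MHC region and 3 at the Ciita locus, of 1866 loops in all. The activated list held 22, with 13 in the MHC region and 9 at the Ciita locus, of 4315.

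Hi-C counts how often 2 stretches of DNA are ligated to each other in crosslinked nuclei. A loop joins 2 anchors that contact each other more than the pixels around them do. The cells were splenic B cells of wild-type C57BL6/J mice aged 6 to 8 weeks, isolated by negative selection. One state was resting (0 h, 8 libraries). The other was activated for 72 h (26 libraries) with lipopolysaccharide at 50 µg/mL, interleukin 4 at 2.5 ng/mL and an antibody to CD180 (RP105) at 0.5 µg/mL. Each state has 1 pooled loop list without replicates. The sources used here do not say which animals or libraries went into it. The name of the activated list carries no time, and it was taken as the 72 h state. Differences between the lists therefore have no replicate check, no p-value between states was computed, and the 95% intervals below cover counting error only. No expression values were used here, so the B cell label was not checked against marker genes.

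MHC class II molecules display peptides from engulfed proteins to helper T cells, and B cells are among the few cell types that carry them at rest. H2-Aa and H2-Ab1 encode the chains of the I-A molecule, and H2-Eb1 encodes the beta chain of I-E. H2-DMa, H2-DMb1 and H2-DMb2 encode the exchange factor that loads peptides, H2-Oa and H2-Ob its modulator, and Tap1, Tap2, Psmb8 and Psmb9 the peptide transporter and proteasome subunits of the class I pathway. Ciita encodes the coactivator that switches class II genes on. It does not bind DNA itself and is recruited by factors bound to a conserved module of class II promoters, whose last element, the Y box, is an inverted CCAAT box bound by NF-Y.

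The promoters of 4 class II genes are shown because this module is what joins the genes on chromosome 17 to Ciita on chromosome 16. Each line gives 80 bases upstream of the gene start, read 5′ to 3′ on the gene's strand from RefSeq (GRCm38.p6). The windows were placed around the letters GATTGG of the Y box, in capitals, so they end at different distances from the gene start.
H2-Aa: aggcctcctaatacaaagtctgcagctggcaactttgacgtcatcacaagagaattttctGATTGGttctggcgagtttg
H2-Eb1: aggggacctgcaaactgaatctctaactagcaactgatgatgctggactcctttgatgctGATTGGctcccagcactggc
H2-Ob: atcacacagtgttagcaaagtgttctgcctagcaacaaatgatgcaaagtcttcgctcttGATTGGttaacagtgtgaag
H2-DMb1: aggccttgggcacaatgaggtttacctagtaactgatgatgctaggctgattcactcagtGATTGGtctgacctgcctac
The motif began 49 bases before the gene start in H2-Aa, 60 in H2-Eb1, 58 in H2-Ob and 62 in H2-DMb1. H2-Aa is on the minus strand and the other 3 genes are on the plus strand. Searched on both strands, GATTGG was in a promoter window of 8 of the 8 class II genes matched in the RefSeq table, of 9 listed. H2-Ab1 and Ciita had no entry there and were not searched. It was in 6 of 7 genes of a class I list that also holds H2-K1 and Pou5f1, and in 2 of 9 matched class III genes. It was in 2 of 4 matched genes of a list of Tap1, Tap2, Psmb8, Psmb9 and Brd2, and in 1 of 4 matched genes around Ciita. Of all 32851 RefSeq promoter windows of the same length, 16.1% held it. Counted by window, the shares were 88.9% for class II, 77.8% for class I, 20.0% for class III, 33.3% for the Tap1 list and 25.0% around Ciita. A match describes letters and is not evidence of binding. The loop lists use mm9, for which no annotation was used here, so no gene or promoter was placed on an anchor.

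The MHC region was divided by textbook gene order into a centromere-side flank (33.8 to 34.1 Mb), the K end with H2-K1 (34.1 to 34.2 Mb), a class II part (34.2 to 34.5 Mb), a class III part (34.5 to 35.4 Mb) and a class I part (35.4 to 36.6 Mb). Class III holds genes that present no antigen, such as the complement genes C4b, C2 and Cfb and the cytokine genes Tnf, Lta and Ltb, and class I holds H2-D1 and the H2-Q and H2-T genes. These borders are settings. A loop touches a part when either anchor starts in it.

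Each part of the MHC had at most 1 more called loop in activated than in resting cells, while the Ciita locus had 6 more. Class II was touched by 3 resting and 4 activated loops, a ratio of 1.33 (exact 95% interval 0.226 to 9.10). Class III was touched by 4 and 5 loops, a ratio of 1.25 (0.269 to 6.30), and class I by 3 and 3, a ratio of 1.00 (0.134 to 7.47). The K end had 1 loop in each state, and the flank had 0 and 1. The Ciita locus had 3 and 9, a ratio of 3.00 (0.749 to 17.2). When both anchors had to lie in the locus it had 1 and 7, a ratio of 7.00 (0.899 to 315), since 2 loops of each state end outside it.

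Over the whole genome the lists differed by a ratio of 2.31 (2.19 to 2.44), on chromosome 17 by 1.96 (1.50 to 2.59) and on chromosome 16 by 2.26 (1.66 to 3.10). The MHC region as a whole, with 10 and 13 loops, had a ratio of 1.30 (0.527 to 3.31), whose interval includes all 3 of these values. With so few loops, neither the MHC region nor the Ciita locus could be told from the genome at this depth. Expected contacts at shared loops were 1.55 times as high in the activated list. This was taken as the depth ratio, since library totals are not given, and depth itself was not measured. The activated list was thinned by dividing its counts by this ratio and keeping loops at least as enriched as the weakest resting loops. By this loose rule 12 of the 13 MHC loops and 8 of the 9 Ciita loops still passed. The share of all activated loops that passed was not counted, so this tells nothing particular to these loops.

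Per megabase, the class II part was the most densely looped of the 3 classes. It had 10.0 resting and 13.3 activated loops per Mb, against 4.44 and 5.56 in class III and 2.50 and 2.50 in class I. The K end, next to class II, had 10.0 in each state. The whole genome had 0.712 and 1.65. That value counts each loop once, while a part counts any loop with either anchor in it, which raises the values of short parts. With both anchors inside, class II had 2 and 3 loops. The Ciita locus went from 3.75 to 11.2 loops per Mb, counting loops that end outside it. The class II values rest on 3 and 4 loops in 300 kb, so their intervals are as wide as those of the counts.

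**Figure D1:**
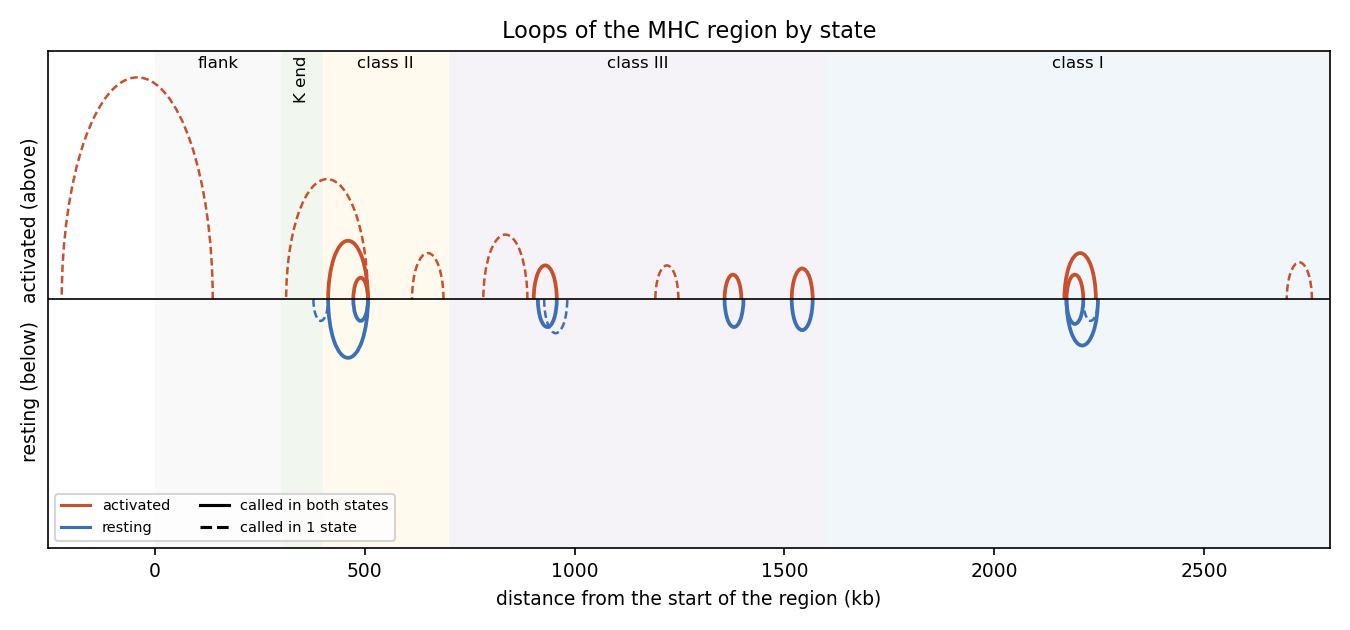
Arcs join the anchors of each called loop, drawn against the distance in kb from the start of the MHC region, with activated loops above the line and resting loops below; arc height grows with loop length. Solid arcs are called in both states and dashed arcs in 1, and 7 loops have a partner in the other state.

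Of the 10 resting MHC loops, 7 were also called in activated cells (70.0%, Wilson interval 39.7% to 89.2%), beside 65.2% of all resting loops. A loop counts as called in both states when both anchors, widened by 10 kb, overlap those of a loop in the other list. Of the 13 activated MHC loops, 7 were also called in resting cells (53.8%, 29.1% to 76.8%), beside 28.3% of all activated loops. The MHC loops are short, and sharing moved with length in opposite ways in the lists. Among all resting loops it was 41.7% up to 50 kb, 65.9% from 50 to 100 kb and 84.4% from 200 to 500 kb, and 5 of the 7 resting MHC loops up to 50 kb were shared. Among all activated loops it was 40.2%, 33.7% and 21.8% in the same classes, and 4 of the 4 activated MHC loops up to 50 kb were shared. The median MHC loop spanned 45 kb in resting cells (range 35 to 95) and 60 kb in activated cells (35 to 360), against 90 kb and 140 kb over all loops.

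Loops over 100 kb were few in the MHC. There were 0 among the 10 resting loops and 3 among the 13 activated ones (23.1%), against 45.5% and 65.2% of all loops. The loops of activated cells alone had a median length of 90 kb (55 to 360), and those called in both states had 50 kb in the activated list.

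Within the class II part, 2 loops were called in both states, at the same pixels and with close to the same contacts. The longer one, chr17:34210001-34310000 (95 kb), had 101 observed contacts against 44.9 expected from the surrounding donut of pixels in resting cells. In activated cells it had 98 against 45.2. Strength, the observed over the expected count, came to 2.25 (1.83 to 2.74) and 2.17 (1.76 to 2.64), with intervals that overlap almost entirely. The highest of its 4 q-values was 4.8e-04 in resting and 2.2e-03 in activated cells.

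The shorter one, chr17:34270001-34310000 (35 kb), shares the right anchor with it. This loop had 112 observed and 62.5 expected contacts in resting cells and 132 and 72.7 in activated cells. Its strength was 1.79 (1.47 to 2.16) and 1.81 (1.52 to 2.15), with highest q-values of 6.3e-03 and 6.9e-06. It was among the weakest loops for its length, at percentile 3.25 of the resting and 6.64 of the activated loops up to 50 kb.

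The activated-over-resting count ratios of these loops were below the median over all shared loops, a pattern picked out after seeing the values. The observed ratio, activated over resting, was 0.97 (0.73 to 1.29) for the 95 kb loop and 1.18 (0.91 to 1.53) for the 35 kb loop, and the donut-expected ratio was 1.01 and 1.16. Over all 1212 one-to-one pairs of shared loops the expected ratio had a median of 1.55, with quartiles of 1.30 and 1.84. Of these pairs, 6.85% had an expected ratio as low as that of the 95 kb loop and 14.7% as low as that of the 35 kb loop. Among the 215 pairs that sat at the same pixel and spanned up to 100 kb, the numbers were 3 (1.40%) and 10 (4.65%). By the observed ratio they were 6 and 21 of the 215. The loops themselves are included in each.

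In the other parts of the MHC the donut-expected ratio was from 1.48 to 1.60 in class III and from 1.44 to 1.77 in class I. The class II loops share an anchor and overlap, so their surroundings are partly the same pixels and they are not independent. Against the lower left, horizontal and vertical backgrounds the 95 kb loop gave 0.98, 0.97 and 1.14, and the 35 kb loop 1.48, 1.35 and 1.18. All of these were below the medians over all pairs, which were 1.62, 1.57 and 1.58. The same held for the medians of the 7 shared MHC loops, which were 1.51, 1.35 and 1.39. A pair of class III loops had horizontal ratios of 1.26 and 1.27, below that of the 35 kb class II loop, so low ratios were not limited to class II under the horizontal background. No cause was tested.

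**Figure D2:**
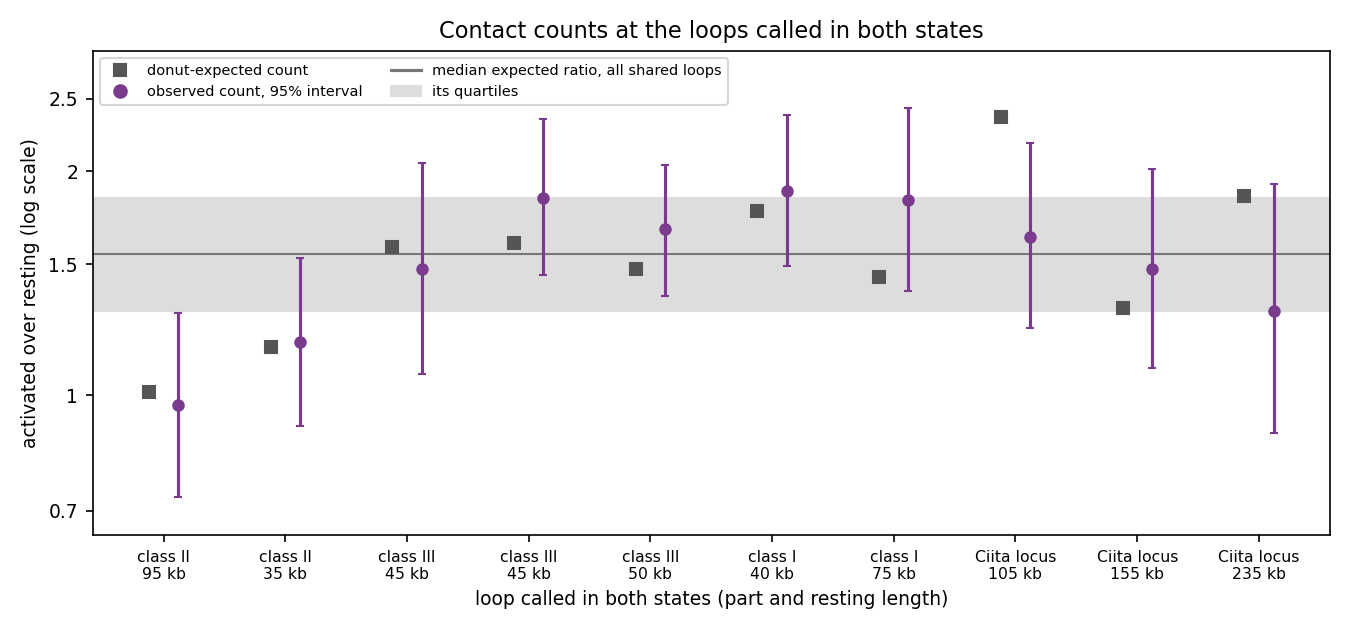
For the 10 loops called in both states, the activated count over the resting count is shown on a log axis, as squares for the donut-expected count and as circles with 95% intervals for the observed count. The class II loops have expected ratios of 1.01 and 1.16, below the grey band of quartiles (1.30 to 1.84) over all shared pairs, and the class III and class I loops lie inside it.

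Class II was touched by 3 more loops called in 1 state each, and 2 of them ended at an anchor of the shared loops. In resting cells, chr17:34175001-34215000 (35 kb) joined the K end to the left anchor of the 95 kb loop, with 89 observed and 44.9 expected contacts, a strength of 1.98 (1.59 to 2.44) and a highest q-value of 2.9e-02. Its horizontal background was 1.46 times its vertical one, outside the 0.72 to 1.39 that holds the middle 90% of resting loops. In activated cells, chr17:34110001-34310000 (195 kb) reached from farther out in the K end to the right anchor, with 50 observed and 19.2 expected contacts, a strength of 2.61 (1.94 to 3.44) and a highest q-value of 2.4e-03. Both states thus had 1 loop between the K end, where H2-K1 lies, and the class II part, but with different anchors at either end. The activated loop rests on a single enriched pixel.

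The right anchor, chr17:34305001-34310000, carried 2 loops in resting and 3 in activated cells. It was the only MHC anchor with 3 loops in a state. A loop with no anchor in the resting list, chr17:34410001-34490000 (75 kb), lay at the class III side of the class II part in activated cells. It had 92 observed and 45.3 expected contacts, a strength of 2.03 (1.64 to 2.49) and a highest q-value of 1.7e-02, at percentile 8.14 for its length. No called loop joined class II to class III, or class III to class I, in either state.

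The class III part held the strongest MHC loop of both states. The loop at chr17:35315001-35370000 (50 kb) had 159 observed and 50.7 expected contacts in resting cells and 265 and 75.0 in activated cells. Its strength was 3.13 (2.67 to 3.66) and 3.54 (3.12 to 3.99), at percentiles 96.2 and 98.4 for its length. It lies at the class I side of the class III part and had more observed contacts than any other loop of chromosome 17 in either list.

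A shared class III loop at chr17:35155001-35205000 had 107 observed contacts against 52.5 expected in resting cells. In activated cells its right anchor was 1 pixel nearer, at chr17:35155001-35200000, with 197 against 83.8. Its strength was 2.04 (1.67 to 2.46) and 2.35 (2.03 to 2.70), so the intervals overlap. Another shared loop ran over chr17:34710001-34760000 in resting cells (67 and 31.1 contacts) and over chr17:34700001-34760000 in activated cells (99 and 49.3). Its strength was 2.15 (1.67 to 2.73) and 2.01 (1.63 to 2.44).

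Class III differed between the states by 1 resting loop and 2 activated ones. The resting loop chr17:34725001-34785000 (55 kb) had 64 observed and 29.5 expected contacts and a strength of 2.17 (1.67 to 2.77). It rests on 1 pixel, and both its anchors lay 25 kb from those of the nearest activated loop, just past the distance of 20 kb that still counts as shared. The activated loop chr17:34580001-34690000 (105 kb), the longest of class III, had 62 and 22.4 contacts and a strength of 2.77 (2.12 to 3.55). The other, chr17:34990001-35050000 (55 kb), had 121 and 53.6 contacts and a strength of 2.26 (1.87 to 2.70). Neither had an anchor in the resting list.

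Resting class I loops joined 3 anchors within 85 kb, each to both others. The loop chr17:35970001-36015000 (40 kb) had 114 observed and 43.1 expected contacts, chr17:35970001-36050000 (75 kb) had 81 and 29.2, and chr17:36010001-36050000 (35 kb) had 77 and 40.8. Their strengths were 2.64 (2.18 to 3.18), 2.77 (2.20 to 3.45) and 1.89 (1.49 to 2.36).

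Activated cells had the first 2 of these loops. The 40 kb loop had 214 observed and 76.4 expected contacts, a strength of 2.80 (2.44 to 3.20). The 75 kb loop, moved by 1 pixel at each end to chr17:35965001-36045000, had 148 and 42.0, a strength of 3.52 (2.98 to 4.14). Its log2 strength ratio of 0.35, activated over resting, was the highest among the shared loops, but with a counting error of 0.20 it did not pass 1.96 errors. Its expected count in activated cells was 1.81 times as high against the horizontal as against the vertical background. This is outside the 0.70 to 1.45 that holds the middle 90% of activated loops, so this strength depends on the background chosen. In resting cells the value was 1.50, also outside the 0.72 to 1.39 that holds the middle 90% of resting loops. The 35 kb loop was not called in activated cells although both its anchors were in use there. At rest it was weak, at percentile 13.5 for its length and with a highest q-value of 1.1e-02.

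One more activated class I loop, chr17:36495001-36560000 (60 kb), had 53 observed and 21.6 expected contacts and a strength of 2.45 (1.84 to 3.21) and lay 445 kb from the nearest resting anchor. Long stretches of the class I part had no anchor in either state. The longest ran over 595 kb from chr17:35370001 to 35965000, from the strongest class III loop to the first class I anchor, and the next over 445 kb from chr17:36050001 to 36495000. Class I genes come in near-identical copies, and how many read pairs could be placed in these stretches was not tested.

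The flank held 1 loop, chr17:33575001-33940000 in activated cells, the longest of the MHC at 360 kb. Its left anchor lay outside the region. It had the fewest contacts of any member, with 28 observed and 9.08 expected, a strength of 3.08 (2.05 to 4.46), and the weakest q-value, 6.0e-02.

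**Figure D3:**
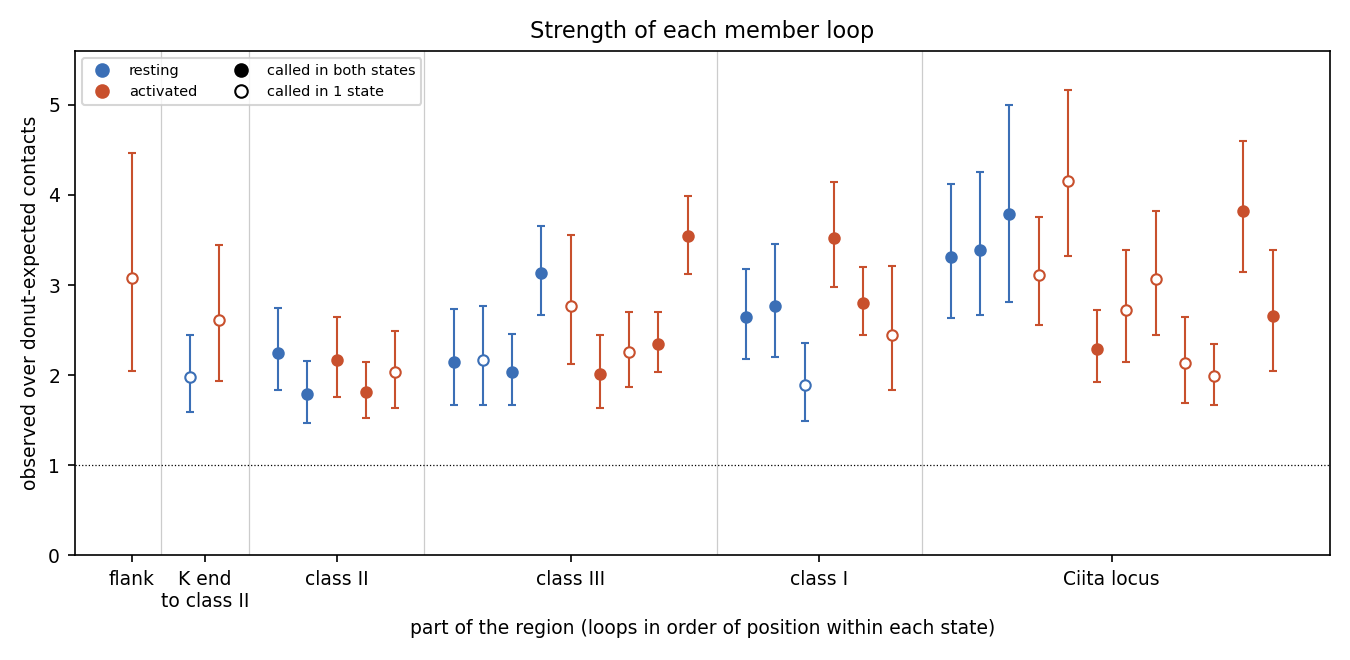
Strength (observed over donut-expected contacts) of all 35 loops by part, with 95% intervals, resting in blue and activated in red; filled points were called in both states and open points in 1. The dotted line marks a strength of 1; loops within the class II part lie between 1.79 and 2.25, and the Ciita locus reaches 4.16.

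At the Ciita locus the 3 resting loops all had a partner in activated cells, which had 6 further loops. The partners made up 33.3% of the 9 activated loops (12.1% to 64.6%), near the 28.3% over the genome. These loops were longer than those of the MHC, with a median of 155 kb in resting cells (105 to 235) and 150 kb in activated cells (40 to 280). Ciita itself was taken to lie near 10.5 Mb.

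The shared loop closest to that position ran over chr16:10410001-10520000 in resting cells, with 81 observed and 24.5 expected contacts and a strength of 3.31 (2.63 to 4.12). In activated cells it ran over chr16:10415001-10510000, with 132 and 57.6 and a strength of 2.29 (1.92 to 2.72). Its highest q-value was 4.3e-06 and 6.5e-06. The log2 strength ratio was -0.53 (counting error 0.20), the lowest among the shared loops. With the donut background it was the one of 10 member pairs past 1.96 counting errors, against 12.7% of all 1212 pairs. Its observed contacts were 1.63 times as high in activated cells (1.23 to 2.18) and its donut-expected contacts 2.36 times. Against the lower left, horizontal and vertical backgrounds the expected contacts were 2.61, 2.29 and 1.88 times as high. The vertical value lies inside the interval of the observed ratio, so this fall depends on the background chosen. The called pixels differ by 15 kb summed over both ends, and whether the move of the pixel plays a part was not tested.

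Activated cells had 2 larger loops from an anchor on the centromere side, the first around this loop and the second ending before it. The first, chr16:10275001-10530000 (250 kb), had 83 observed and 19.9 expected contacts, a highest q-value of 9.1e-07 and a strength of 4.16 (3.32 to 5.16), the highest of all 35. Its horizontal background was 1.72 times its vertical one, again outside the middle 90%. The second, chr16:10275001-10400000 (120 kb), had 109 and 35.0 contacts, a strength of 3.11 (2.56 to 3.76) and a highest q-value of 5.1e-10. Both ended within 20 kb of an anchor of the resting loop. The merged anchor nearest to the position given for Ciita, chr16:10505001-10530000, carried 1 loop in resting cells and 2 in activated cells.

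On the other side of Ciita, where Dexi, Clec16a and Socs1 follow in RefSeq order, activated cells had 4 loops where resting cells had no called loop. The loop chr16:10565001-10790000 (220 kb) had 78 observed and 28.7 expected contacts, a strength of 2.72 (2.15 to 3.39) and a highest q-value of 2.0e-05. From the same anchor, chr16:10565001-10850000 (280 kb) had 82 and 26.7, a strength of 3.07 (2.45 to 3.82) and a highest q-value of 1.8e-06.

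The other 2 lay inside the 280 kb loop and had lower strength, but were also shorter. Among activated loops of like length the 220 kb and 280 kb loops were at percentiles 18.3 and 36.2. The 130 kb and 40 kb loops were at 3.50 and 26.6. The loop chr16:10645001-10780000 (130 kb) had 81 and 38.0 contacts, a strength of 2.13 (1.69 to 2.65) and a highest q-value of 3.5e-03. The loop chr16:10790001-10835000 (40 kb) had 140 and 70.4, a strength of 1.99 (1.67 to 2.35) and a highest q-value of 3.6e-03. With anchors within 10 kb merged, an anchor at chr16:10775001-10795000 joined 3 of the 4. Their pixels differ, starting at 10785001, 10775001 and 10790001. None of the 4 had an anchor in the resting list.

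**Figure D4:**
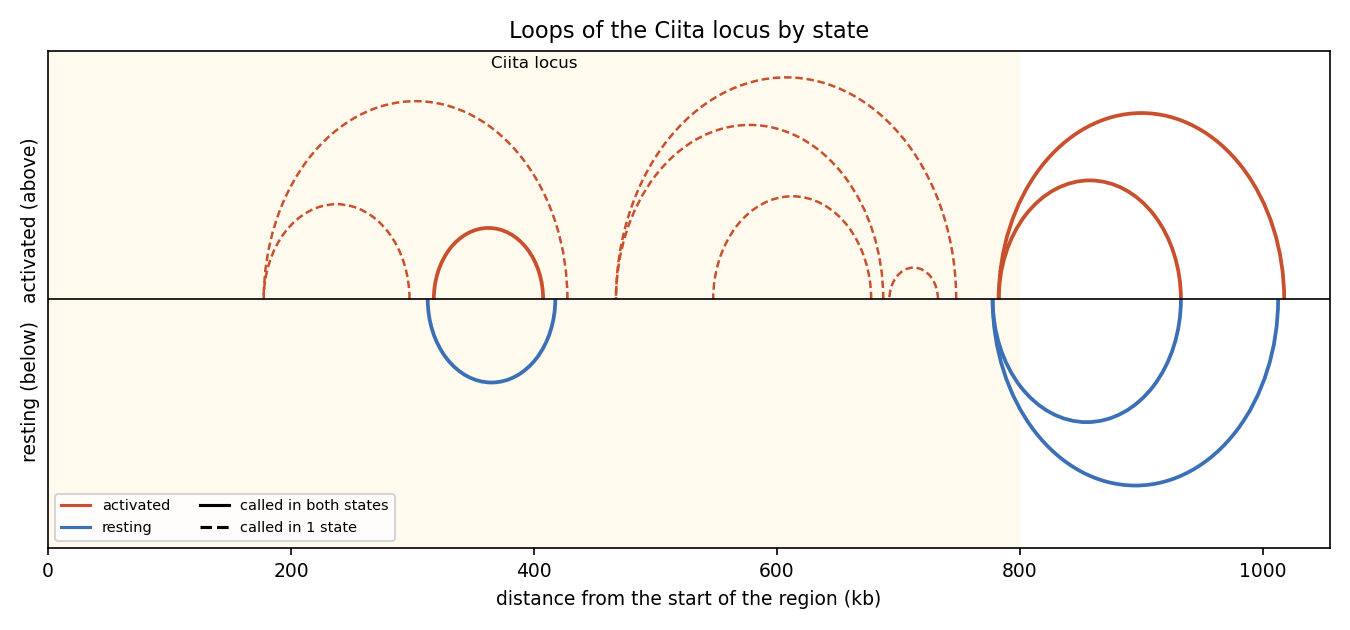
Arcs join the anchors of each called loop at the Ciita locus against the distance in kb from the start of the locus, activated above and resting below, with solid arcs called in both states and dashed arcs in 1. All 3 resting loops have a partner above, and the 6 dashed arcs are activated loops without one; the shaded span is the 800 kb of the locus.

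The remaining shared pair of loops left the locus from its telomere-side anchor. In resting cells chr16:10875001-11035000 (155 kb) had 75 observed and 22.1 expected contacts, a strength of 3.39 (2.67 to 4.25) and a highest q-value of 1.2e-04. In activated cells it ran over chr16:10880001-11035000 with 111 and 29.0, a strength of 3.82 (3.15 to 4.60) and a highest q-value of 1.2e-10. The longer one, chr16:10875001-11115000 (235 kb), had 50 and 13.2 contacts in resting cells, a strength of 3.79 (2.81 to 5.00) and a highest q-value of 4.0e-05, the strongest resting member. In activated cells it ran over chr16:10880001-11120000 with 65 and 24.4, a strength of 2.66 (2.05 to 3.39) and a highest q-value of 1.4e-02. Its log2 ratio was -0.51 (counting error 0.27), which does not pass 1.96 errors, and that of the shorter loop was 0.17 (0.22).

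As over the whole genome, most member loops called in activated cells alone stood on anchors absent from the resting list. Of the 3 MHC loops called in resting cells alone, 2 reused an anchor of the activated list, beside 66.3% of all such loops. Of the 6 MHC loops called in activated cells alone, 1 reused a resting anchor, and at the Ciita locus 2 of 6 did, beside 33.8% of all such loops. After anchors within 10 kb were merged, the MHC loops had 15 resting and 23 activated anchors, with 12 in both. The Ciita loops had 5 and 12, and all 5 resting anchors were also activated ones. These counts include anchors outside the regions, at chr17:33575001-33580000, chr16:11030001-11035000 and chr16:11110001-11120000.

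Among the 7 shared MHC loops the median log2 strength ratio was 0.08 (range -0.10 to 0.35), and 5 of 7 were higher in activated cells. With the lower left background the median was -0.02, so its direction depends on the background. Over all 1212 pairs the median was 0.05 and 56.7% were higher. None of the 7 passed 1.96 counting errors. MHC loops had a median strength of 2.16 at rest and 2.45 after activation, and those at the Ciita locus had 3.39 and 2.72, against 2.63 and 2.84 over all loops. Short loops have lower strength in these lists, with a resting median of 2.18 up to 50 kb and 3.40 from 200 to 500 kb. Compared with loops of like length in the same list, 3 of 10 resting and 5 of 13 activated MHC loops were above the median, as were 3 of 3 and 3 of 9 at the Ciita locus.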

How the data were processed

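The deposited values were 2 loop lists, 1 per state. BWA and Juicer were the tools, and mm9 the build, per the submitters' processing notes. The sources used here do not name tool versions, the loop caller or library totals. Every loop had an observed contact count, deposited by the authors as unnormalized whole numbers. Per the file headers it also had an expected count and a q-value for each of 4 local backgrounds, named donut, lower left, horizontal and vertical. Pixels were 5 kb wide. The lists hold only loops that passed the authors' limits, so a missing loop was not called, which does not show that it is absent.

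Loops counted as shared when both anchors, widened by 10 kb, overlapped those of any loop in the other list, which allows 20 kb at each end. This held for 1216 resting and 1219 activated loops. For strength and count ratios they were paired one to one, nearest first, which gave 1212 pairs. Length was the distance between anchor starts, and strength the observed over the donut-expected count with an exact Poisson interval of the observed count. Shares have Wilson intervals and ratios of counts exact conditional binomial ones, all at 95%. Counting errors of log2 ratios came from the observed counts alone. Python 3.11.15, numpy 2.4.6, scipy 1.17.1, pandas 2.3.3 and matplotlib 3.10.9 were used, and matching was tested on simulated data. The members, the part borders and the gene lists were chosen with earlier results of these data known. All loops touching class II, the K end or the Ciita locus, or joining parts, were named, with the 5 strongest per state, the longest and all resting-only loops of class III and class I. These covered every member except the flank loop. Alternatives covered q-values, merged pixels, depth, anchor widening, part borders, backgrounds and the membership rule. The other 224 libraries were not analysed here.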

Additional observations from a re-analysis of the deposited data

How the results depend on the processing

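Of 51 alternatives planned over 9 results, 50 stayed within the interval of the value reported and 1 fell outside it. Of the 50, 1 turned the sign of a log2 ratio. The alternative outside was the share of resting MHC loops also called in activated cells. It was 70.0% and became 90.0% (9 of 10) with anchors widened by 25 kb. With anchors not widened it was 40.0%, and the activated share went from 53.8% to 30.8%. With all 4 q-values at most 0.01, the MHC lists held 8 and 10 loops. The resting loops lost were that between the K end and class II and the class I loop chr17:36010001-36050000. The activated MHC loops lost were chr17:34410001-34490000 in class II, chr17:36495001-36560000 in class I and the flank loop. The activated 235 kb Ciita loop was lost as well. Thinning the activated list by the depth ratio of 1.55 lost the class II loop chr17:34410001-34490000 and the activated 235 kb Ciita loop. This left 3 and 3 loops at class II and 3 and 8 at the Ciita locus. With at least 2 merged pixels the activated 195 kb loop from the K end was lost. The median log2 strength ratio of shared MHC loops was 0.08, turned to -0.02 with the lower left background, and was 0.14 and 0.16 with the horizontal and vertical ones. Chosen after seeing the data, the median expected ratio of the shared class II loops was 1.09 with the donut and 1.23, 1.16 and 1.16 with the other 3, where all pairs had 1.55, 1.62, 1.57 and 1.58. No paired analysis was possible because each state has 1 pooled list. Counts of 3 to 13 loops limit every ratio here, and variation between animals was not measured.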
